A study of Mus musculus and Callithrix jacchus with 22 samples.

Results

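Cells of mouse neocortex at postnatal day 7 (P7) were compared with cells at postnatal day 1 (P1) by single-cell ATAC-seq. The members were all cells of the 8 libraries labelled P1 or P7, 4 at each age, which held 4866 cells at P1 and 6127 at P7. These 10993 cells were part of 19145 mouse cells and of 35064 cells in the whole mouse and marmoset series. All 8 libraries were made from the joined somatosensory and motor cortex of wild-type C57BL/6 mice, with no treatment at either age. The labels also carried a protocol for sorting tdTomato-labelled neurons, whereas the study describes its single-cell tissue as unfractionated. The sources do not give how many animals each library came from, so the p-values measure only the spread between libraries, which may be technical.

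ATAC-seq uses the transposase Tn5, which cuts and tags DNA where chromatin is open. In the plate-based form used here, barcodes added in successive rounds assign each read to a cell. A peak is a region of open chromatin called across cells, and a cell is scored for the peaks in which it has a read, so the number of peaks per cell depends on the number of reads. The cortex at these ages holds excitatory projection neurons that were born before birth and are still extending and refining their axons. Callosal projection neurons (CPN) connect the hemispheres. Subcerebral projection neurons (ScPN) reach the brainstem and spinal cord, and corticothalamic projection neurons (CthPN) reach the thalamus. Astrocytes (Astro) support and help shape synapses, and oligodendrocyte precursor cells (OPC) divide and give rise to the cells that make myelin.

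These 5 names were the only types given at both ages by the authors' annotation. They covered 76.2% ± 1.28 of the cells of a library at P1 and 49.8% ± 0.486 at P7 (SD, n = 4 libraries each). Layer IV neurons and the interneuron names Inh_Sst and Inh_Npy were given only at P7, and Inh_CGE and Inh_MGE only at P1. Cells named Unknown made up 4.85% ± 0.411 of a library at P1 and 19.3% ± 1.83 at P7. No gene-level values were used here, so the names were not set against marker genes.

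The libraries fell into a pair of series by name, with 2 libraries of each age in either series. The names of 4 libraries carried a number after the age and are called numbered libraries here, and the other 4 began with the word Pool. That number differed between P1 and P7, so within the numbered libraries it cannot be told apart from age. What the number and the word Pool mean is not given, and a series here is a grouping by name, not a known batch. The libraries had from 893 to 2113 cells, with 2186788 to 11505864 reads in all. The numbered P1 libraries stood apart from all others in the number of peaks for a given number of reads. Their median cell had 171 and 107 peaks per 1000 reads, against 578 in both Pool P1 libraries and 521 to 555 in the P7 libraries. The highest cell of either numbered P1 library had 398 peaks per 1000 reads, and the lowest cell of the 6 others had 463. Their medians of 4587 and 6371 reads per cell were the highest of the 8, and their medians of 804 and 699 peaks per cell the lowest. Cells with under 600 peaks were 33.1% and 39.4% of these 2 libraries and 1.12% to 5.16% of the others. Only these 2 libraries reached the authors' minimum of 300 peaks, and the lowest cell of each of the others had 487 to 570. Where peaks per read are low, this minimum also leaves out cells with few reads. Cells with under 2000 reads were 8.38% and 0.316% of these 2 libraries and 22.3% to 52.7% of the others. The peak minimum thus bears on their reads, peaks and numbers of cells. The main results below are therefore given for the numbered and the Pool libraries apart, and without the numbered P1 libraries. Whether reads and peaks of these 2 libraries were counted in the same way as in the others is not known, which bears on every value of peaks that includes them.

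**Figure D1:**
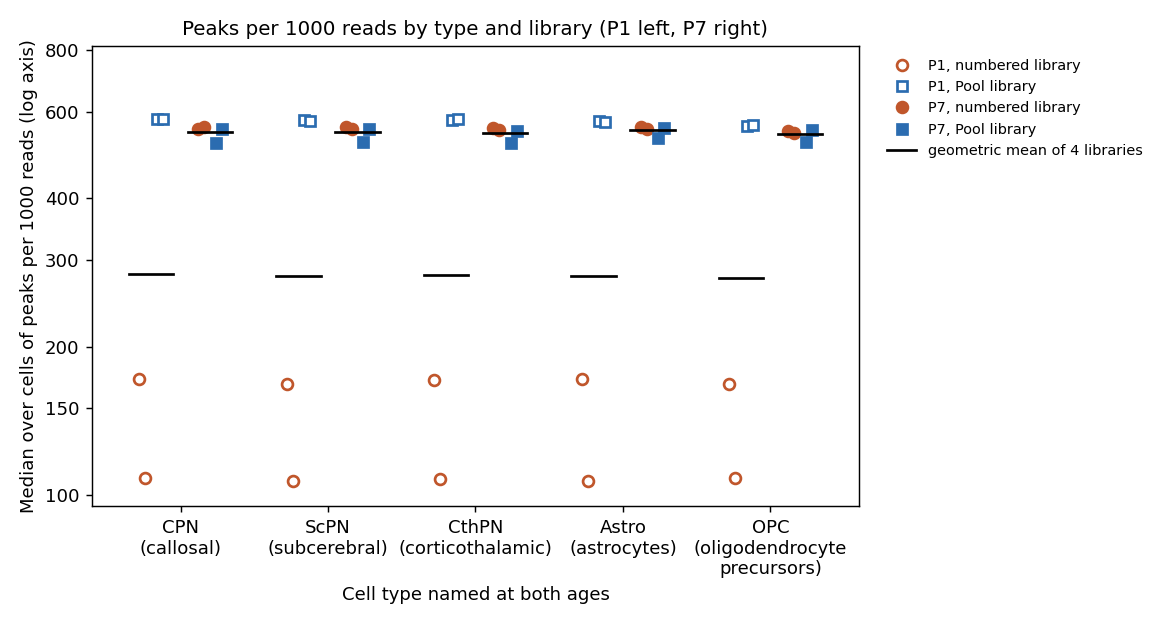
Median over cells of peaks per 1000 reads (log axis) for each type named at both ages, with 1 point per library, P1 on the left (open) and P7 on the right (filled), and a bar at the geometric mean of 4 libraries. In each of the 5 types the 2 numbered P1 libraries lie between 107 and 172, and the other 6 libraries lie between 519 and 581.

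Cell barcodes were also shared between libraries. Of 28 pairs of libraries, 8 shared barcodes, from 109 to 333 per pair, and the other pairs shared none. Cells with the same barcode carried the same type in 12.1% to 19.7% of cases, beside 12.1% to 21.8% given by the type shares of the libraries alone. The first and second library of a series and age had no barcode in common. Their numbers of cells per named type nevertheless differed by no more than sampling noise in the numbered P1 (chi-square test of counts, p = 0.173), Pool P1 (p = 0.882) and numbered P7 libraries (p = 0.758), but not in the Pool P7 libraries (p = 0.00397). Numbered against Pool libraries differed in these numbers of cells at P1, with p = 3.2e-06 to 5.9e-05 over the pairs (chi-square test of counts). At P7 such pairs had p = 0.0029, 0.0088, 0.046 and 0.10 (chi-square test of counts). Libraries of a series were thus more alike than those of different series, except in Pool P7. The tests over all libraries treat every library as independent. The first and second library were kept as separate libraries, but whether such a pair came from separate preparations or from 1 preparation cannot be told from these data. The same comparisons with the 2 libraries of each age and series averaged are 2 against 2, where no test can pass.

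The first comparison asked whether cells of a type had more or fewer counted reads at P7 than at P1. The authors sampled libraries to a similar depth per cell and kept cells between limits on reads and on peaks. Counted reads are therefore not a measure of what the cells yielded, and this also bears on peaks per cell. Whether the counts come from before or after that sampling is not known, and library medians ran from 1912 to 6371 reads. No type passed the test over all 8 libraries, and the projection neurons moved in opposite directions in the numbered and the Pool libraries. Neurons of all 3 types had fewer reads at P7 than at P1 in numbered libraries and more in Pool libraries. Glia had fewer reads at P7 in numbered libraries and differed little in Pool libraries.

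In CPN, the median reads per cell at P1 were 4773 and 6260 in the numbered libraries and 1846 and 1963.5 in the Pool libraries. At P7 they were 4237 and 3813 in the numbered and 2729.5 and 3604.5 in the Pool libraries. The 2 ages overlapped over all libraries but did not overlap within either series. Over all libraries, CPN had 3711 ± 2172 reads at P1 and 3596 ± 635 at P7 (SD, n = 4), a ratio of geometric means of 1.1-fold (adjusted p = 0.771, exact permutation test, two-sided). The ratio of P7 to P1 was 0.735-fold in numbered and 1.65-fold in Pool libraries.

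ScPN had medians of 6456 and 7197 reads in numbered and 1842.5 and 1923 in Pool libraries at P1. The P7 medians of ScPN were 3851 and 4536 in numbered and 3324 and 4031 in Pool libraries. The spread over P1 libraries was thus wider than any difference between ages, at 4355 ± 2870 reads for P1 and 3936 ± 500.3 for P7 (SD, n = 4). ScPN differed 1.09-fold over all libraries (adjusted p = 0.771, exact permutation test), 0.613-fold in numbered and 1.94-fold in Pool libraries.

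For CthPN the P1 medians were 5170.5 and 6955 reads in numbered and 2256 and 1949 in Pool libraries. At P7 they reached 4650 and 4813 in numbered and 3475 and 5644.5 in Pool libraries. The second Pool library of P7 had the highest median of the 5 types at P7. CthPN differed 1.29-fold over all libraries (adjusted p = 0.714, exact permutation test), 0.789-fold in numbered and 2.11-fold in Pool libraries.

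Astro cells had medians of 3663 and 5137 reads in numbered and 1565 and 1431.5 in Pool libraries at P1. At P7 all 4 libraries lay close together, at 1480.5 and 1615 reads in numbered and 1483 and 1424 in Pool libraries. The difference was 0.588-fold over all libraries (adjusted p = 0.571, exact permutation test), 0.356-fold in numbered and 0.971-fold in Pool libraries. The authors kept cells with at least 1000 reads, and between 43.9% and 59.4% of P7 Astro cells per library had under 1500. The share of Astro cells under 1500 reads was 46.9% and 56.0% in Pool P1 libraries. It was 1.49% and 0 of 102 cells in numbered P1 libraries, where a count of 0 allows up to 2.94% by counting error alone. The numbered P1 shares cannot be set against the others, because the minimum of 300 peaks left out cells with few reads there. At the median of 107 peaks per 1000 reads in the library with the count of 0, a cell under 1500 reads falls below that minimum.

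OPC had medians of 3630.5 and 5631 reads in numbered and 2059 and 2265 in Pool libraries at P1. The P7 medians were 1761.5 and 2120 in numbered and 1942 and 2079 in Pool libraries, so the 2 highest P7 libraries lay above the lowest P1 library. The difference was 0.631-fold over all libraries (adjusted p = 0.429, exact permutation test), 0.427-fold in numbered and 0.930-fold in Pool libraries. The Pool P1 values of OPC rested on 17 and 21 cells.

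Without the numbered P1 libraries, P7 neurons had more reads than P1 neurons by 1.86-fold in CPN, 2.08-fold in ScPN and 2.18-fold in CthPN. Glia then differed little, by 1.00-fold in Astro and 0.912-fold in OPC. With 2 P1 libraries against 4 P7 libraries, the smallest p of the exact permutation test was 0.0667, which each of the 3 neuron types reached without being able to pass. This comparison set Pool libraries of P1 against both series of P7.

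Peaks per cell were higher at P7 in all 3 projection neuron types, and here both series went the same way. CPN, ScPN and CthPN had 2.10-fold, 2.14-fold and 2.51-fold the peaks of P1 cells, and no P7 library overlapped a P1 library in any of them. All 3 passed with the smallest p that 4 against 4 libraries can give (p = 0.0286, adjusted p = 0.0476, exact permutation test, two-sided), and Astro and OPC did not pass. Leaving out the first or second numbered P1 library changed the differences little, to 1.03 and 0.94 from 1.07 on the log2 scale in CPN, 1.12 and 1.01 from 1.1 in ScPN, and 1.28 and 1.20 from 1.33 in CthPN. The calls were lost in both cases, with 0 of 5 types past the threshold. ScPN and CthPN stayed at the smallest p of 0.0286 (adjusted p = 0.0714) and CPN went to p = 0.0571 (adjusted p = 0.0952, exact permutation test, 3 against 4 libraries). The ratios that include the numbered P1 libraries carry their low number of peaks per read, and those of the Pool libraries do not.

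The median peaks per cell of CPN at P1 were 838 and 701 in numbered and 1074 and 1142.5 in Pool libraries. At P7 they were 2334.5 and 2098 in numbered and 1419.5 and 2031 in Pool libraries. The first Pool library of P7 was the lowest at P7 and still lay above all P1 libraries. CPN had 939 ± 205 peaks at P1 and 1971 ± 389.9 at P7 (SD, n = 4), a ratio of 2.89-fold in numbered and 1.53-fold in Pool libraries.

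ScPN had 1056 and 833.5 peaks in numbered and 1041.5 and 1131 in Pool libraries at P1. They had 2242 and 2566.5 in numbered and 1731 and 2195.5 in Pool libraries at P7. The ratio was 2.56-fold in numbered and 1.80-fold in Pool libraries, and the ages did not overlap in either.

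CthPN rose the most of the 5 types, from 899 and 754 peaks in numbered and 1291 and 1126 in Pool libraries at P1. The P7 values were 2603 and 2687 in numbered and 1823 and 3090 in Pool libraries. The ratio of P7 to P1 was 3.21-fold in numbered and 1.97-fold in Pool libraries. Whether CthPN differed from CPN or ScPN in this ratio was not tested.

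Astro cells had 664 and 572 peaks in numbered and 898 and 836.5 in Pool libraries at P1, and 831.5 and 892 in numbered and 796 and 788.5 in Pool libraries at P7. The ratio was 1.13-fold over all libraries (adjusted p = 0.400, exact permutation test), 1.40-fold in numbered and 0.914-fold in Pool libraries. OPC had 639 and 572 peaks in numbered and 1147 and 1262 in Pool libraries at P1. At P7 OPC had 987 and 1147 in numbered and 1009 and 1172.5 in Pool libraries. The OPC ratio was 1.26-fold over all libraries (adjusted p = 0.400, exact permutation test), 1.76-fold in numbered and 0.904-fold in Pool libraries. Both glial types thus had more peaks at P7 in the numbered libraries and fewer in the Pool libraries.

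**Figure D2:**
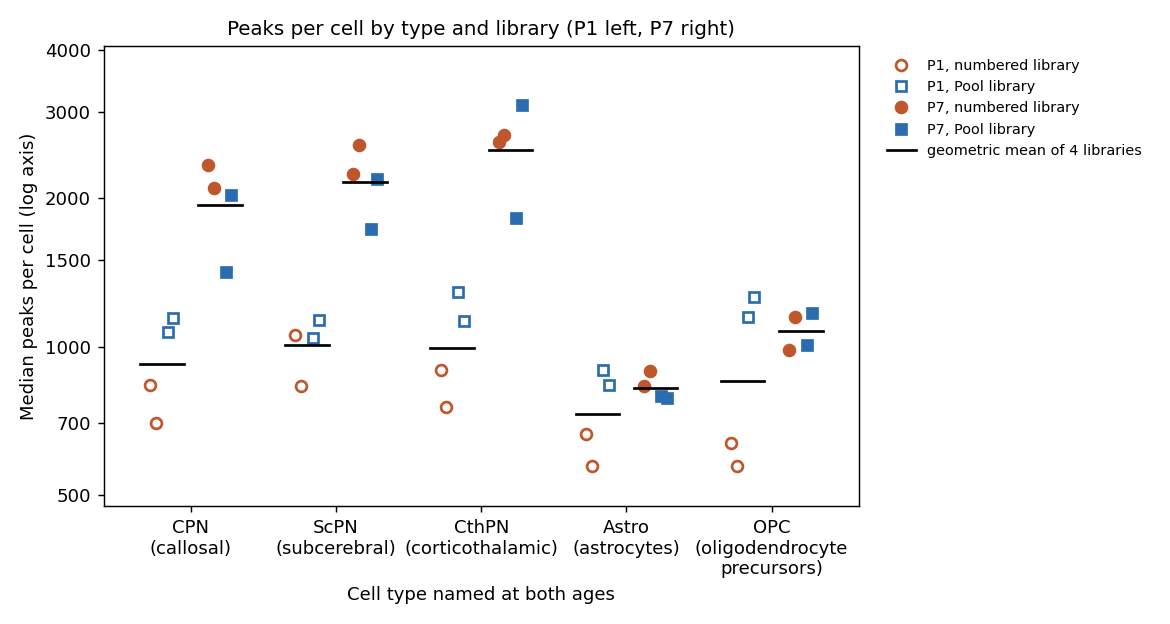
Median peaks with a read per cell (log axis) of each type named at both ages, with 1 point per library, P1 on the left (open) and P7 on the right (filled), and a bar at the geometric mean of 4 libraries. In CPN, ScPN and CthPN all P7 points lie above all P1 points, and in Astro and OPC the ages overlap.

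Without the numbered P1 libraries the ratio of peaks per cell was 1.75-fold in CPN, 1.99-fold in ScPN and 2.08-fold in CthPN, each at the smallest possible p of 0.0667 (exact permutation test, 2 against 4 libraries). It was 0.953-fold in Astro and 0.894-fold in OPC. In neurons these ratios lay near those of reads in the same libraries.

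Peaks were next compared at an equal number of reads, from a line of log2 peaks on log2 reads fitted to the cells of each type within each library and read at 3000 reads. At 3000 reads, P7 cells had 0.941-fold to 0.953-fold the peaks of P1 cells in Pool libraries and 3.67-fold to 3.94-fold in numbered libraries, in all 5 types. CPN at 3000 reads had 553 and 377 peaks in numbered and 1713 and 1714 in Pool libraries at P1, and 1672 and 1680 in numbered and 1556 and 1670 in Pool libraries at P7. The 4 P7 libraries and the 2 Pool P1 libraries were thus close to each other, and the numbered P1 libraries far below. The minimum of 300 peaks also cut off the cells to which the numbered P1 lines were fitted. Over all libraries the ratio was 1.86-fold to 1.93-fold in the 5 types, and none passed (adjusted p = 0.429 each, exact permutation test). Without the numbered P1 libraries the ratio was 0.951-fold to 0.970-fold, with a p of 0.0667 to 0.400 (exact permutation test). In all 5 types every P7 library lay below both Pool P1 libraries at equal reads. No margin could reach the threshold here, since the smallest possible p of 2 against 4 libraries is 0.0667 (exact permutation test).

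Reads of each type were then divided by the reads of CPN in the same library, which removes a scale shared by all cells of a library. It does not remove the minimum of 1000 reads, which lies nearer to the median in a shallow library. Nor does it remove the minimum of 300 peaks, which acts in the numbered P1 libraries. The numbered and Pool libraries of P1 did not overlap in these ratios for ScPN and OPC, and did overlap for Astro and CthPN. Both glial types lay lower against CPN at P7 than at P1 in every library and in both series. Neither passed after adjustment over the 4 types compared (p = 0.0286 each, the smallest possible, adjusted p = 0.0571, exact permutation test, n = 4 libraries each). Astro cells had 0.767 and 0.821 times the reads of CPN in numbered and 0.848 and 0.729 times in Pool libraries at P1. At P7 these values were 0.349 and 0.424 in numbered and 0.543 and 0.395 in Pool libraries. The ratio of P7 to P1 was 0.534-fold over all libraries, 0.485-fold in numbered, 0.589-fold in Pool libraries and 0.537-fold without the numbered P1 libraries.

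OPC had 0.761 and 0.900 times the reads of CPN in numbered and 1.12 and 1.15 times in Pool libraries at P1. At P7 they had 0.416 and 0.556 times in numbered and 0.711 and 0.577 times in Pool libraries. The ratio of P7 to P1 was 0.573-fold over all libraries, 0.581-fold in numbered, 0.565-fold in Pool libraries and 0.489-fold without the numbered P1 libraries. All 4 P7 libraries were below all 4 P1 libraries, as for Astro.

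The other neurons stayed nearer to CPN. CthPN had 0.993 to 1.22 times the reads of CPN at P1 and 1.1 to 1.57 times at P7, a ratio of 1.17-fold (adjusted p = 0.114, exact permutation test). It was 1.07-fold in numbered, 1.28-fold in Pool libraries and 1.17-fold without the numbered P1 libraries. ScPN had 0.979 to 1.35 times at P1 and 0.909 to 1.22 times at P7, a ratio of 0.992-fold (adjusted p = 0.943, exact permutation test). For ScPN the series differed in direction, at 0.834-fold in numbered and 1.18-fold in Pool libraries, and it was 1.11-fold without the numbered P1 libraries. The reference decided the calls. Another reference was the median reads of all cells of the 5 types in a library, which depends on their mix. With it, Astro at -0.81, OPC at -0.71 and CthPN at 0.32 on the log2 scale passed (adjusted p = 0.0381 each, exact permutation test). With the median of all cells of the library as the reference, Astro fell by 0.69 and OPC fell by 0.59 on the log2 scale, and CPN rose by 0.21 and CthPN by 0.44 (adjusted p = 0.0357 each, exact permutation test). ScPN differed by 0.20 under that reference, short of the threshold (exact permutation test, adjusted p = 0.171).

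The numbers of cells of each type were compared as ratios within a library, limited to the 5 types named at both ages, so that layer IV neurons, named only at P7, were left out. Under which name such cells lie at P1 is not known, and the ratios were also taken with layer IV neurons of P7 counted with CPN, an alternative chosen after seeing the data. Relative to CPN, ScPN were more frequent and CthPN less frequent at P7, and OPC were more frequent relative to Astro and to the 3 projection neuron types together. Of 6 ratios, 5 passed, 4 higher and 1 lower at P7, and these 5 had the same direction in the numbered and in the Pool libraries with no overlap between ages (p = 0.0286, adjusted p = 0.0343 each, exact permutation test, n = 4 libraries each). All 6 are ratios of recovered and named cells, not of cells in the tissue, and they are not 6 independent results. ScPN to CthPN follows from the ratios of ScPN and of CthPN to CPN. OPC to Astro follows from those of OPC and of Astro to the projection neurons.

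In each library at P1 there were 19.7 and 16.3 ScPN per 100 CPN in numbered and 20.9 and 24.9 in Pool libraries. At P7 there were 55.6 and 55.8 in numbered and 54.9 and 68.9 in Pool libraries. The ratio of ScPN to CPN was 2.89-fold higher at P7 over all libraries, 3.10-fold in numbered, 2.70-fold in Pool libraries and 2.57-fold without the numbered P1 libraries. The second Pool library of P7 was the highest and the other 3 P7 libraries nearly equal. With layer IV neurons counted with CPN, there were 30.3 to 38.5 ScPN per 100 at P7, and the difference went from 1.53 to 0.69 on the log2 scale and still passed (adjusted p = 0.0286, exact permutation test).

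CthPN numbered 50.3 and 45.5 per 100 CPN in numbered and 58.8 and 58.2 in Pool libraries at P1. At P7 they numbered 22.6 and 18.7 in numbered and 16.0 and 28.6 in Pool libraries. The ratio of P7 to P1 was 0.396-fold over all libraries, 0.430-fold in numbered, 0.366-fold in Pool libraries and 0.359-fold without the numbered P1 libraries. This direction depended on the naming of cluster 9, which held 834 P7 cells, all named Unknown, and no P1 cell. With these cells counted as CthPN, the ratio of CthPN to CPN was higher at P7, by 0.57 on the log2 scale (adjusted p = 0.0286, exact permutation test). With layer IV neurons counted with CPN, the difference went from -1.33 to -2.18 and kept its direction (adjusted p = 0.0286, exact permutation test). Nothing in the files used here ties cluster 9 to CthPN, and it was counted so because of its size.

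ScPN numbered 35.5 to 42.7 per 100 CthPN at P1 and 241 to 343 per 100 at P7. By the authors' names, the order of the 2 types thus differed between the ages. This ratio was 7.30-fold higher at P7 over all libraries, 7.22-fold in numbered, 7.39-fold in Pool libraries and 7.16-fold without the numbered P1 libraries. With cluster 9 counted as CthPN it was higher by 0.96 on the log2 scale and still passed (adjusted p = 0.0286, exact permutation test). The order of the 2 types then did not change, since CthPN outnumbered ScPN in every P7 library as well. Cluster 9 held 192 and 171 cells in numbered and 272 and 199 in Pool libraries of P7. In the same order, these libraries held 77, 63, 72 and 92 named CthPN and 189, 188, 247 and 222 ScPN. As shares of the 3 types together, CPN made up 57.7% ± 3.24 at P1 and 55.6% ± 3.48 at P7, ScPN 11.7% ± 1.43 and 32.5% ± 1.62, and CthPN 30.6% ± 2.09 and 11.8% ± 2.24 (SD, n = 4 libraries each).

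OPC numbered 34.8 and 20.6 per 100 Astro cells in numbered and 34.7 and 42.0 in Pool libraries at P1. At P7 they outnumbered Astro cells in every library, with 103 and 128 per 100 in numbered and 138 and 169 in Pool libraries. The ratio was 4.15-fold higher at P7 over all libraries, 4.30-fold in numbered, 4.0-fold in Pool libraries and 3.47-fold without the numbered P1 libraries.

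Against the 3 projection neuron types together, OPC numbered 5.10 and 3.54 per 100 in numbered and 2.82 and 3.35 in Pool libraries at P1. At P7 there were 10.2 and 12.4 in numbered and 8.45 and 8.49 in Pool libraries, a ratio of 2.70-fold over all libraries and 3.17-fold without the numbered P1 libraries. Astro cells numbered 14.6 and 17.2 per 100 projection neurons in numbered and 8.14 and 7.99 in Pool libraries at P1, and 9.90 and 9.69 in numbered and 6.11 and 5.03 in Pool libraries at P7. The ratio for Astro was 0.652-fold (adjusted p = 0.171, exact permutation test), 0.618-fold in numbered and 0.688-fold in Pool libraries, but 0.914-fold without the numbered P1 libraries. Ages did not overlap within a series for Astro, but the Pool P1 libraries lay below the numbered P7 libraries. The Astro ratio passed with cluster 9 counted as CthPN, at -1.02 on the log2 scale against -0.62, and with layer IV neurons counted with CPN, at -1.14 (adjusted p = 0.0286 each, exact permutation test). With layer IV neurons in the denominator, OPC per 100 projection neurons differed by 0.91 against 1.43 on the log2 scale and still passed (adjusted p = 0.0286, exact permutation test).

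Reads per cell of glia relative to CPN were lower at P7, as given above, while the OPC ratios were higher. A limit on reads or on peaks acts on both the reads and the ratios. Among cells with at least 2000 reads, OPC per projection neuron differed by 0.66 on the log2 scale against 1.43 for all cells and still passed (adjusted p = 0.0343, exact permutation test). OPC per Astro cell differed by 2.51 against 2.05 (adjusted p = 0.0343), and Astro per projection neuron by -1.86 against -0.62 (adjusted p = 0.0571, exact permutation test). Among cells with at least 3000 reads, a limit chosen after seeing the data, libraries of P7 held 1 to 8 Astro cells and the Pool P1 libraries 2 and 3 OPC, so ratios of glia are not given there. The ratios among projection neurons kept their directions and calls at 3000 reads, with 1.49 for ScPN to CPN, -1.30 for CthPN to CPN and 2.79 for ScPN to CthPN on the log2 scale (adjusted p = 0.0343 each, exact permutation test).

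**Figure D3:**
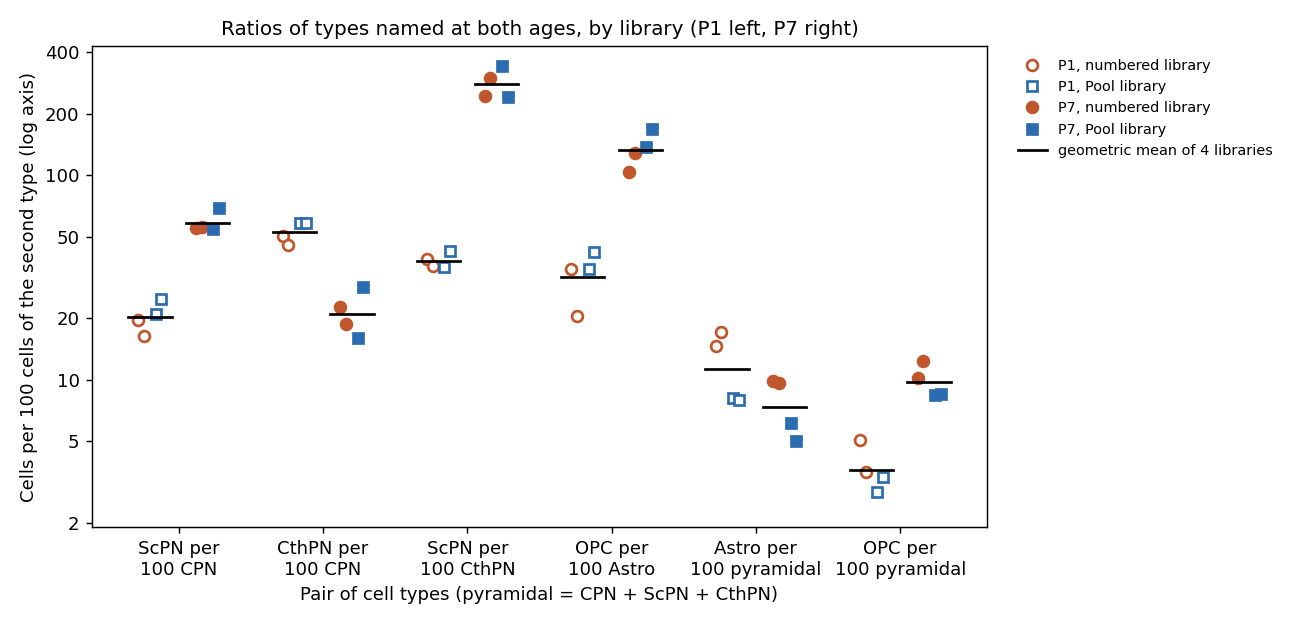
Cells of 1 type per 100 cells of another (log axis) for 6 pairs of types named at both ages, with 1 point per library, P1 on the left (open) and P7 on the right (filled), and a bar at the geometric mean of 4 libraries. In 5 pairs the P1 and P7 points do not overlap, and for Astro per 100 projection neurons the Pool P1 libraries lie below the numbered P7 libraries.

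The clusters of the authors show how far the types of the 2 ages were grouped together. Of 21 clusters with a P1 or P7 cell, 13 held both ages, 1 held P1 but no P7 cells and 7 held P7 but no P1 cells. In 9 clusters there were at least 20 cells of each age, and these 9 held 36.6% ± 1.27 of the cells of a library at P1 and 26.5% ± 2.02 at P7 (SD, n = 4 libraries each). Cluster sizes are given as a description, because the clusters were made from these cells.

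Most projection neurons of the same name lay in different clusters at the 2 ages. All 1851 CPN of P1 were in cluster 1 and all 1449 CPN of P7 in cluster 3. ScPN were in cluster 16 at P1, with 374 cells, and in cluster 8 at P7, with 846 cells. CthPN of P1 were in cluster 10, with 800 cells, and cluster 18, with 169 cells, and those of P7 in cluster 18, with 176 cells, and cluster 20, with 128 cells.

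Cluster 18 was thus the only cluster that held projection neurons of 1 name at both ages. Its cells numbered 7.81 and 4.36 per 100 CPN in numbered and 13.4 and 13.2 in Pool libraries at P1, and 12.4 and 10.7 in numbered and 8.89 and 18 in Pool libraries at P7, so the ages overlapped. The other CthPN numbered 41.1 to 45.4 per 100 CPN at P1 in cluster 10 and 7.11 to 10.6 at P7 in cluster 20. The lower number of CthPN at P7 thus lay outside cluster 18, a description that rests on the clustering.

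Glia were grouped by type and not by age. Cluster 12 held every Astro cell, 402 of P1 and 196 of P7, and cluster 14 every OPC, 129 of P1 and 254 of P7, so their values by cluster are those given by type. Other clusters with at least 20 cells of each age held names that differed between ages, or Unknown at both. Cluster 6 held 347 P1 cells named Inh_MGE, a name for interneurons from the medial ganglionic eminence, and 571 P7 cells named Inh_Sst, for somatostatin interneurons, which arise there. Cluster 11 held 551 P1 cells named Inh_CGE, for interneurons of the caudal ganglionic eminence, and 57 P7 cells named Unknown. Cluster 13 held 53 P1 cells named Unknown and 184 P7 cells named Inh_Npy. Clusters 23, 26 and 28 were Unknown at both ages, with 92, 24 and 20 cells at P1 and 91, 46 and 43 at P7.

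**Figure D4:**
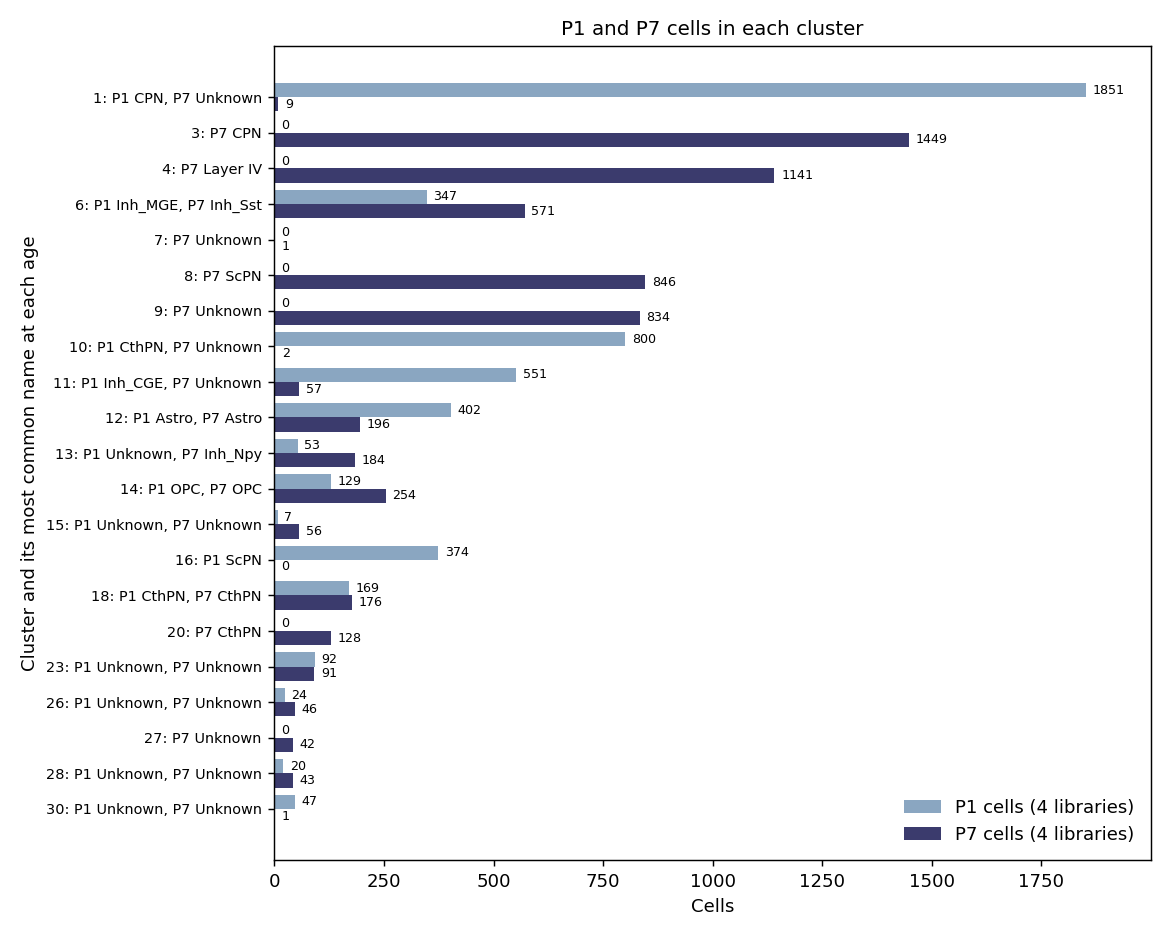
Number of cells of P1 and P7, summed over 4 libraries each, in each of the 21 clusters with a cell of either age, with the most common name at each age on the vertical axis. Clusters 1, 10 and 16 hold most projection neurons of P1 and clusters 3, 8 and 20 most of those of P7, while clusters 6, 12, 14 and 18 hold more than 100 cells of each age.

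Reads per cell were tested in the 6 clusters with at least 5 cells in every library, 6, 12, 13, 14, 18 and 23, and none passed (adjusted p = 0.514 to 0.857, exact permutation test, n = 4 libraries each). In cluster 6 the medians were 4100.5 and 5240 reads in numbered and 1894 and 1580 in Pool libraries at P1, and 3022.5 and 2553 in numbered and 2367 and 2905 in Pool libraries at P7. The ratio of P7 to P1 was 0.599-fold in numbered and 1.52-fold in Pool libraries, the opposite directions seen in projection neurons. In cluster 18 the medians were 7421 and 8021 in numbered and 3115 and 2722 in Pool libraries at P1. At P7 the cluster 18 medians were 5686 and 5289 in numbered and 3621.5 and 6568 in Pool libraries, a ratio of 0.711-fold and 1.67-fold. Without the numbered P1 libraries the ratio was 1.78-fold in cluster 18, 1.56-fold in cluster 6, 1.47-fold in cluster 13 and 1.39-fold in cluster 23. Cluster 13 went from 2850 and 5989.5 reads to 1846 and 2075 in numbered libraries, 0.474-fold, and from 1161 and 1283 to 1500.5 and 1821.5 in Pool libraries, 1.35-fold. The Pool P1 values of cluster 13 rested on 7 and 5 cells. Cluster 23 differed 0.817-fold in numbered and 0.992-fold in Pool libraries.

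Peaks per cell were higher at P7 in clusters 6, 13 and 18, by 1.86-fold, 1.55-fold and 2.08-fold, with no overlap between ages and in both series. They did not pass after adjustment over the 6 clusters (p = 0.0286 each, adjusted p = 0.0571, exact permutation test, n = 4 libraries each). Cluster 6 had 682 and 561 peaks in numbered and 1113 and 914 in Pool libraries at P1, and 1674.5 and 1421.5 in numbered and 1222 and 1589.5 in Pool libraries at P7. Cluster 18 had 1337 and 865.5 in numbered and 1890 and 1583 in Pool libraries at P1, and 3177.5 and 2893 in numbered and 1928.5 and 3667.5 in Pool libraries at P7. Its first Pool library of P7 lay just above the highest P1 library. Without the numbered P1 libraries the ratios were 1.45-fold, 1.40-fold and 1.64-fold in clusters 6, 13 and 18. Cluster 23 differed 1.63-fold over all libraries (adjusted p = 0.214, exact permutation test), 2.84-fold in numbered and 0.931-fold in Pool libraries.

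At 3000 reads the 6 clusters repeated the pattern of the types. The ratio of peaks was 3.60-fold to 4.10-fold in numbered and 0.929-fold to 0.960-fold in Pool libraries, and none passed over all libraries (adjusted p = 0.429 each, exact permutation test, n = 4). Cluster 18, whose cells share 1 cluster and 1 name at both ages, had 548 and 305 peaks at 3000 reads in numbered and 1733 and 1727 in Pool libraries at P1. At P7 it had 1666 and 1684 in numbered and 1547 and 1669 in Pool libraries. The gap between the numbered P1 libraries and all others was thus present within a single cluster.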

How the data were processed

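Fixed cells were tagged with barcoded Tn5 in plates, pooled, distributed into wells by sorting and amplified. After trimming, the authors mapped reads to the mouse genome using Bowtie2 (build mm10 in the submitters' processing notes, which also name MACS2), filtered them on mapping quality, removed duplicates and sampled libraries to a similar depth per cell. Peaks were called with MACS2 and brought to 1 width, and cells were kept between limits on reads and peaks. Cell types were named by the authors from inferred activity of marker genes, separately for each age of a cluster. The treatment of doublets was not given in these sources.

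The deposited table held 1 row per cell with counts of reads and of peaks with a read, not normalized. Cells were mapped to libraries by the library name in the table, which begins with Pool for every library. The first part of the cell identifier and the sample titles separate the series. No cell was removed, and the lowest values were 1000 reads and 300 peaks.

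Each library gave 1 value per type or cluster: the log2 median of reads or peaks, the log2 peaks at 3000 reads from a fitted line, or the log2 ratio of cell numbers. Types needed 10 cells in every library. Clusters needed 20 cells of each age and 5 in every library. Means of 4 against 4 libraries were compared by an exact two-sided permutation test over 70 arrangements, with Benjamini-Hochberg adjustment within each family of results and a threshold of 0.05. Fold values are ratios of geometric means over libraries. The limit allowed by a count of 0 is 3 counts of the total and covers counting error only. Every type named at both ages and every cluster with 20 cells of each age is named. Members, lists and tests were chosen with earlier results of these data known. Alternatives were other references, read limits, estimates and libraries, a series block and a replicate block. Leaving out both numbered P1 libraries, the 3000-read limit on relative reads and ratios, and layer IV neurons counted with CPN were added after seeing the data. The code was tested on simulated data. Python 3.11.15, numpy 2.4.6, pandas 2.3.3 and scipy 1.17.1 were used.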

Additional observations from a re-analysis of the deposited data

Results flagged for a closer look

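Within the P7 libraries, the first Pool library stood below the other 3 in peaks at 3000 reads. Its gap to the nearest library, divided by the range of the 4, was 0.918 in CPN, 0.850 in ScPN and 0.883 in CthPN. By cluster it was 0.956 in cluster 6, 0.882 in cluster 13, 0.870 in cluster 18 and 0.912 in cluster 23. Each lay above the 95% critical value of Dixon's test for 4 values. The second Pool library stood above the other 3 P7 libraries in the ratio of ScPN to CPN, with a gap of 0.929 of the range. These were 8 of 86 groups of 4 libraries examined. The groups are not independent, since types and clusters share libraries and, in part, cells. All flags but that of ScPN to CPN came from 1 library on 1 measure, so their number cannot be set against a rate given by chance.

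The numbered and the Pool libraries moved in opposite directions from P1 to P7 in 18 results, with every library of a series on the same side. None of these differences between series was tested, because 2 against 2 libraries within each series allow no test that could pass. The values that follow are the log2 difference of P7 minus P1 in Pool libraries minus that in numbered libraries. For reads per cell it was 1.16 in CPN, 1.67 in ScPN and 1.42 in CthPN, and 1.34 in cluster 6, 1.52 in cluster 13 and 1.24 in cluster 18. For peaks per cell it was -0.61 in Astro, which is cluster 12. For peaks at 3000 reads it was -1.97 in CPN, -2.05 in ScPN, -1.99 in CthPN, -1.99 in Astro and -1.99 in OPC. By cluster it was -1.98 in cluster 6, -1.99 in clusters 12 and 14, -2.14 in cluster 18 and -1.94 in cluster 23. The cause was not tested. The numbered P1 libraries, which had a low number of peaks per read, enter all of these differences.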

How the results depend on the processing

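Depth and design set the limits. Cells of the numbered P1 libraries were cut off by the minimum of 300 peaks. Glia at P7 and all types of the Pool P1 libraries lay near the minimum of 1000 reads, with 20.3% to 34.0% of Pool P1 projection neurons per type and library under 1500 reads. Several library values rested on under 20 cells, and the smallest p was above the threshold for any test other than 4 against 4 or 3 against 4 libraries. All values here are log2 differences of P7 minus P1 unless called a count, and where a value changed sign or call the cause was not tested.

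In the numbered libraries alone, reads turned to -0.44 in CPN, -0.71 in ScPN, -0.34 in CthPN and -0.49 in cluster 18. In the Pool libraries alone, reads turned to 0.60 in cluster 6 and 0.44 in cluster 13, reads of ScPN relative to CPN to 0.24, and peaks to -0.13 in Astro (cluster 12), -0.15 in OPC (cluster 14) and -0.10 in cluster 23. Peaks at 3000 reads in the Pool libraries turned to -0.088 in CPN, -0.076 in ScPN, -0.084 in CthPN, -0.084 in Astro and -0.070 in OPC, and to -0.079, -0.059, -0.11 and -0.091 in clusters 6, 13, 18 and 23.

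Without the 2 numbered P1 libraries, reads turned to 0.0022 in Astro, 0.64 in cluster 6, 0.56 in cluster 13 and 0.47 in cluster 23, and those of ScPN relative to CPN to 0.16. Peaks turned to -0.069 in Astro and -0.16 in OPC. Peaks at 3000 reads turned to -0.060 in CPN, -0.044 in ScPN, -0.054 in CthPN, -0.072 in Astro and -0.060 in OPC, and to -0.056, -0.044, -0.077 and -0.061 in clusters 6, 13, 18 and 23.

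With 1 minimum of 570 peaks and 1436 reads for all libraries, which left 8774 cells, reads turned to -0.10 in CPN and -0.032 in ScPN, and those of ScPN relative to CPN to 0.067. Relative to the median of the library, 4 of 5 types passed in reads against 0, reads of cluster 6 turned to 0.0051, and peaks turned to -0.70 in Astro, -0.54 in OPC, -0.24 in cluster 13 and -0.17 in cluster 23. Relative to all 5 types, 3 of 4 passed in reads against 0, and ScPN turned to 0.080. With cluster 9 as CthPN, CthPN to CPN turned to 0.57, and Astro to projection neurons passed at -1.02, as it did with layer IV counted with CPN at -1.14. Under both, 6 of 6 ratios passed, which are not independent of each other.

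Leaving out 1 library at a time gave 0 to 3 types passing in peaks per cell, with 0 when either numbered P1 library was left out, although the differences of the 3 neuron types were then 0.94 to 1.28 against 1.07 to 1.33. Reads then ranged from -0.13 to 0.46 in CPN, -0.19 to 0.46 in ScPN, -0.35 to 0.23 in cluster 6, -0.64 to 0.15 in cluster 13, -0.14 to 0.38 in cluster 18 and -0.50 to 0.16 in cluster 23, and those of ScPN relative to CPN from -0.072 to 0.083. All 5 passing type ratios kept passing in each of these 8 fits. For cells with at least 3000 reads, glia relative to CPN gave no value, since a library held 1 such Astro cell and another 2 such OPC.

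Libraries of the 2 ages share replicate numbers within a series. Deviations of same-numbered libraries from their group means correlated at 0.18, 0.30, 0.017 and 0.26 over 16 values, so the numbers were not taken to pair them. With the replicate number as a block, values were the same, such as 1.53 for ScPN to CPN, and the smallest possible p was 0.125 (exact permutation test). With the series as a block it was 0.0556, so neither block could pass. The numbered series is a block by name only, since the number after the age differs between ages.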

Other observations

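The 57 P7 cells of cluster 11, which at P1 held the 551 cells named Inh_CGE, came mostly from 1 library. The second Pool library of P7 held 45 of them, 3.13% of its cells. The other P7 libraries held 4, 6 and 2, which were 0.271%, 0.419% and 0.112% of their cells. All 57 were named Unknown, as was every other group of 1 cluster and age with under 100 cells. At P1 the cluster held 9.32% to 14.1% of the cells of each library. No test was made of this difference between libraries of 1 age.

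Cluster 6, of medial ganglionic eminence interneurons by its P1 name and somatostatin interneurons by its P7 name, numbered 11.5 and 14.0 cells per 100 projection neurons of the 3 types in numbered and 9.47 and 7.83 in Pool libraries at P1. At P7 it numbered 22.4 and 22.8 in numbered and 24.8 and 17.3 in Pool libraries. The ages did not overlap in either series. As a cluster size this is a description with no test, and the reference counts 3 projection neuron types without layer IV neurons.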
